A study of Mus musculus with 12 samples.

Results

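The genes described here are 10 mouse genes that act in, or are switched on by, bone morphogenetic protein (BMP) signalling. They are the inhibitors of DNA binding Id1, Id2, Id3 and Id4, the signal transducers Smad1 and Smad5, the inhibitory Smads Smad6 and Smad7, and the homeobox genes Msx1 and Msx2. Members were all probes that carry one of these gene names on the array, which gave 10 of 27745 gene names and 17 of 41174 probes. A probe was tested when every array of some cell fraction had it well above background, which 14 of the 17 member probes and 33134 probes in all met. They cover 9 of the 10 genes, since the probe of Smad7 was too dim, as were the second probes of Id2 and Id4.

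The cells came from CD-1 embryos at E7.5, the stage at which blood and vessel precursors first appear. About 300 whole embryos of 25 litters were pooled, stained for the BMP and TGF-beta co-receptor Endoglin (Eng) and for the VEGF receptor Flk1 (gene Kdr), and sorted into 4 fractions. These were cells with both proteins (Eng+Flk1+), with Flk1 alone (Eng-Flk1+), with Endoglin alone (Eng+Flk1-) and with neither (Eng-Flk1-). Each fraction was collected 3 times at 3000 cells, and 250 ng of PCR-amplified cDNA per sample was labelled for a 1-colour Agilent array, 12 arrays in all. All 12 samples share 1 pool of embryos without a drug, a genetic change or a time course, so p-values measure the spread between sorts of that pool, which may be technical.

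BMP ligands bind paired type I and type II serine/threonine kinase receptors, and the activated type I receptor phosphorylates Smad1 and Smad5. These join Smad4, enter the nucleus and switch on target genes, of which the Id genes are the classical early ones. Id proteins lack a DNA-binding region, pair with basic helix-loop-helix E proteins and keep them off DNA. Smad6 and Smad7 are themselves induced by the pathway and dampen it. In the gastrulating mouse embryo, BMP4 from the extraembryonic ectoderm and extraembryonic mesoderm is needed for posterior mesoderm, allantois and blood formation, and Msx1 and Msx2 are homeobox targets of BMP in many embryonic tissues.

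Levels are given as log2 of the processed signal relative to the 75th percentile of the same array, so 0 is a probe at that percentile and each unit is a factor of 2. Because probes differ in brightness, levels are compared between fractions for 1 probe and not between genes. Differences are on the same log2 scale with the standard error (SE) of the limma fit, and a difference was called when its Benjamini-Hochberg adjusted p over all 33134 probes was under 0.05. The sort by Flk1 was followed by its own RNA, Kdr, which averaged 7.01 ± 0.97 (SE) higher in Eng+Flk1+ than in Eng+Flk1- cells (limma, adjusted p = 0.0181) and 7.31 ± 0.97 higher in Eng-Flk1+ than in Eng-Flk1- cells (adjusted p = 0.00382). Eng RNA separated the sorted fractions less, with differences of 1.61 ± 0.70 between Eng+Flk1+ and Eng-Flk1+ cells (adjusted p = 0.972) and 0.97 ± 0.70 between Eng+Flk1- and Eng-Flk1- cells (adjusted p = 0.558). The 3 Eng-Flk1- arrays stood apart, with 66.5% to 76.3% of spots well above background against 80.2% to 83.3% on the other arrays, and with correlations among themselves of 0.645 to 0.685 against 0.783 to 0.895 within the other fractions.

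**Figure D1:**
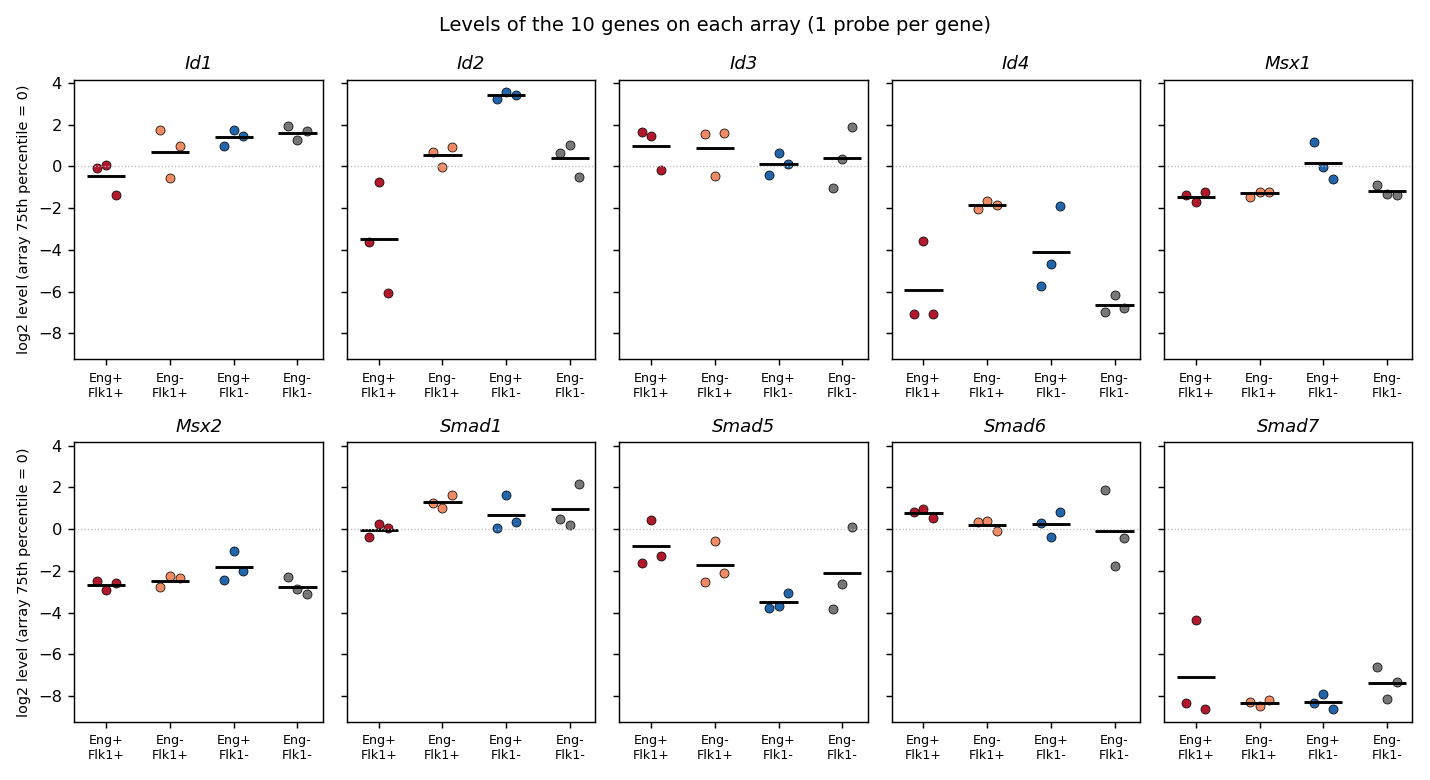
Levels of the 10 genes, 1 probe per gene, on each of the 12 arrays (points) with the mean of each fraction (bar); the vertical axis is log2 of the signal relative to the array's 75th percentile. The Eng+Flk1- arrays of Id2 lie at 3.24 to 3.54, above all other arrays, and Smad7 lies below -6.6 on every array but 1 of Eng+Flk1+.

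Across the 10 genes, 2 differences between single fractions were called, 1 for Id2 and 1 for Id4. Id2 was 118-fold lower in Eng+Flk1+ than in Eng+Flk1- cells, and Id4 was at least 14.1-fold higher in Eng-Flk1+ than in Eng-Flk1- cells. The Id4 bound compares means, with the dim arrays raised to the lowest signal counted as above background, and leaves out the spread between arrays. The call of Id2 held in 17 of 24 alternative settings and that of Id4 in 6 of 22. No difference of Id1, Id3, Smad1, Smad5, Smad6, Msx1 or Msx2 was called in any of the 7 comparisons. Id2 had the widest range among the members: its highest and lowest fraction means were 6.89 apart, more than for 99.5% of tested probes, whose median was 1.44. One of the 3 Smad5 probes followed with 5.44 (more than for 97.8% of probes), and 11 member probes spanned 0.85 to 2.70. For Id4 the lowest fraction was not above background, so its span is not ranked.

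Id2 is the member with the clearest order of fractions. Its level was -3.64, -0.74 and -6.05 on the Eng+Flk1+ arrays, 0.70, -0.04 and 0.93 on the Eng-Flk1+ arrays, 3.24, 3.54 and 3.44 on the Eng+Flk1- arrays and 0.63, 1.02 and -0.49 on the Eng-Flk1- arrays. Eng+Flk1- cells were highest and Eng+Flk1+ cells lowest, neither overlapping another fraction, while the Eng-Flk1+ and Eng-Flk1- arrays lay among each other. The means were -3.48 ± 2.66 in Eng+Flk1+ cells, 0.53 ± 0.51 in Eng-Flk1+ cells, 3.41 ± 0.16 in Eng+Flk1- cells and 0.39 ± 0.78 in Eng-Flk1- cells (SD, n = 3 each). The replicate spread of Id2 was thus widest in Eng+Flk1+ cells and smallest in Eng+Flk1- cells. These values rest on 1 probe, and a dimmer second Id2 probe that was not tested did not show this order.

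The difference of -6.89 ± 1.06 (SE) between Eng+Flk1+ and Eng+Flk1- cells was called for Id2 (limma, adjusted p = 0.0276, 95% interval -9.24 to -4.54). Id2 differed by -4.01 ± 1.06 between Eng+Flk1+ and Eng-Flk1+ cells (adjusted p = 0.422), with no overlap of the arrays. Between Eng+Flk1- and Eng-Flk1- cells the difference of Id2 was 3.02 ± 1.06 (adjusted p = 0.209), again without overlap. The 2 Endoglin differences of Id2 thus had opposite signs in Flk1+ and Flk1- cells, and the difference between them was -7.03 ± 1.50 (adjusted p = 0.0783), which was not called. In bulk samples such as these, fewer cells that express a gene and less RNA per cell cannot be told apart.

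The call of Id2 held in 17 of 24 alternative settings, with the difference between -9.46 and -5.40 and the adjusted p between 0.00324 and 0.113. It was lost when any single Eng+Flk1- array or Eng+Flk1+ replicate 1 or 3 was left out (adjusted p = 0.0573 to 0.105), while leaving out Eng+Flk1+ replicate 2, the one with the highest Id2, gave -8.26 (adjusted p = 0.0095). Slides were not crossed evenly with the fractions, and the values within a slide were -9.46 for Id2 between 1 Eng+Flk1+ and 3 Eng+Flk1- arrays on slide 3, and -2.64 between 2 Eng+Flk1+ and 2 Eng-Flk1+ arrays on slide 2.

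Id4 was the other member with a called difference. Its level was -7.05, -3.57 and -7.07 on the Eng+Flk1+ arrays, -2.05, -1.67 and -1.87 on the Eng-Flk1+ arrays, -5.71, -4.67 and -1.90 on the Eng+Flk1- arrays and -6.98, -6.18 and -6.76 on the Eng-Flk1- arrays. The probe was well above background on 1 of 3 Eng+Flk1+ arrays, on all arrays of the Eng-Flk1+ and Eng+Flk1- fractions and on none of the Eng-Flk1- arrays, so the last has only an upper bound. Eng-Flk1+ cells had the highest mean and the smallest spread, -1.86 ± 0.19 (SD, n = 3), though 1 Eng+Flk1- array lay within their range. The Eng+Flk1+ and Eng-Flk1- arrays overlapped at the bottom.

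Id4 was at least 14.1-fold higher in Eng-Flk1+ than in Eng-Flk1- cells, and the measured difference of 4.78 ± 1.07 (SE) was called (limma, adjusted p = 0.0446, 95% interval 2.4 to 7.15), with measured means of -1.86 in Eng-Flk1+ and -6.64 in Eng-Flk1- cells. The bound sets the dim arrays at the lowest signal that counts as well above background, and it leaves out the spread between arrays. Id4 was at least 2.99-fold higher in Eng+Flk1- than in Eng-Flk1- cells, with measured means of -4.10 and -6.64, a difference that was not called (adjusted p = 0.301). This bound rests on replicate 3 of the Eng+Flk1- cells, without which it is 1.4-fold (adjusted p = 0.641), and under normexp background correction the difference was 0.15. Between Eng+Flk1+ and Eng-Flk1+ cells Id4 differed by -4.03 ± 1.07 (adjusted p = 0.425) without overlap, and between Eng+Flk1+ and Eng+Flk1- cells by -1.80 ± 1.07 (adjusted p = 0.918) with overlap. As for Id2, the 2 Endoglin differences had opposite signs, and the difference between them was -6.58 ± 1.52 (adjusted p = 0.104). The pattern of Eng+Flk1+ arrays all below Eng-Flk1+ arrays together with Eng+Flk1- arrays all above Eng-Flk1- arrays was seen for 2 of 14 member probes, those of Id2 and Id4, and for 0.745% of all tested probes. This pattern was read off the values of these members, so the shares are a description and not a test.

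The call of Id4 held in 6 of 22 alternative settings, with adjusted p between 0.0101 and 0.423, and normexp background correction took the difference to 0.98 (adjusted p = 0.233). Leaving out any 1 of the Eng-Flk1+ arrays, or Eng-Flk1- replicate 1 or 3, lost it (adjusted p = 0.0806 to 0.142). So did leaving out replicate 1 or 3 of the Eng+Flk1+ cells or replicate 2 of the Eng+Flk1- cells, which enter only through the shared estimate of the spread (adjusted p = 0.0512 to 0.0635). Within slide 1, which held 1 Eng-Flk1+ array and the 3 Eng-Flk1- arrays, the difference of Id4 was 4.59.

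The DNA just upstream of Id2, Id4 and Msx1 is shown because Id2 and Id4 carry the called differences and Msx1, by its brighter probe, shared the Eng+Flk1- maximum of Id2. Each sequence is the 250 bases before the annotated start, 5′ to 3′ on the strand of the gene, from RefSeq on GRCm38.p6, at chr12:25096093-25096342 (minus strand) for Id2, chr13:48260866-48261115 (plus strand) for Id4 and chr5:37824586-37824835 (minus strand) for Msx1. Capitals mark matches to GGCGCC, a GC-rich sequence bound by Smad1 and Smad5, to CAGAC on either strand, a Smad4-binding sequence, and to CANNTG, the E-box bound by the helix-loop-helix proteins that Id proteins hold back.
Id2: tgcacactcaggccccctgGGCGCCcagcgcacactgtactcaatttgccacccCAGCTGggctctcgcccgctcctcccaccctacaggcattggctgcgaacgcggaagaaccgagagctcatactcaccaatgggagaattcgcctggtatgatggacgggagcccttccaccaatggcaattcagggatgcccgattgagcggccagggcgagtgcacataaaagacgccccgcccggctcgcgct
Id4: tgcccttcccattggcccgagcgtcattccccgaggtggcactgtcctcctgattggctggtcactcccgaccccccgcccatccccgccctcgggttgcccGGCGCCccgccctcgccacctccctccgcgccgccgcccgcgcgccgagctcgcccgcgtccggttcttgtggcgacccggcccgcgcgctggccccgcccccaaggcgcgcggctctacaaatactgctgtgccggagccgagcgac
Msx1: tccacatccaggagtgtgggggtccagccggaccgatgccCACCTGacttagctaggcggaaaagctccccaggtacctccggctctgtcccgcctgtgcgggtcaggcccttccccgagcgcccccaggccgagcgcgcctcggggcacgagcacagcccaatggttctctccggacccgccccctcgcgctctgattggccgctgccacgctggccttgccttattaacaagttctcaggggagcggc

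RefSeq windows of this length were at hand for 8 of the 10 genes. GGCGCC was found once in the window of Id2, 231 bases before the start, and once in that of Id4, 148 bases before the start, against 9.59% of 32841 such windows of all genes. The window of Id2 was 62.8% GC and that of Id4 75.6% GC, against a median of 52.4% over all windows. The share of 9.59% is thus not from windows of like GC. GGCGCC was not among the letters of the windows of Id3, Smad1, Smad6, Msx1 or Msx2, and 1 of the 3 windows of Smad5 held it. CAGAC was found 2 times in the window of Id3 and once in 1 window of Smad5, and 42.2% of all windows held it. An E-box stood 196 bases before the start of Id2, 210 bases before that of Msx1 and 79 bases before that of Msx2. It was also present in 2 of the 3 windows of Smad5, at 109 and 151 bases, and 66.2% of all windows held one. No matches of different motifs overlapped. The matches are a description of the sequence and show nothing of what is bound in these cells.

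Id1 had its highest means in the fractions sorted as Flk1-, with no called difference. Its brighter probe stood at -0.07, 0.09 and -1.37 in Eng+Flk1+ cells, 1.75, -0.57 and 0.97 in Eng-Flk1+ cells, 0.99, 1.75 and 1.46 in Eng+Flk1- cells and 1.93, 1.26 and 1.68 in Eng-Flk1- cells. Eng+Flk1+ arrays lay below all Flk1- arrays, and the Eng-Flk1+ arrays spread over both. The difference of Id1 between Eng+Flk1+ and Eng+Flk1- cells was -1.85 ± 0.64 (SE; limma, adjusted p = 0.482), and the average over both Endoglin states was -1.38 ± 0.46 for Flk1+ against Flk1- cells (adjusted p = 0.212). A second Id1 probe that overlaps the first by 50 bases gave -1.63 ± 0.70 (adjusted p = 0.68) and -1.46 ± 0.49 (adjusted p = 0.223), with a correlation to the first of 0.979 over the 12 arrays. None of these Id1 differences passed the test.

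Id3 showed no order of fractions beyond its spread. It stood at 1.66, 1.48 and -0.19 in Eng+Flk1+ cells, 1.56, -0.48 and 1.61 in Eng-Flk1+ cells, -0.40, 0.67 and 0.13 in Eng+Flk1- cells and -1.02, 0.36 and 1.90 in Eng-Flk1- cells, and all 4 fractions overlapped. Its differences in the 4 single-step comparisons ran between -0.28 and 0.85, each with an SE of 0.86. The interval of the widest, between Eng+Flk1+ and Eng+Flk1- cells, was -1.05 to 2.75.

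Msx1 was highest in Eng+Flk1- cells, as Id2 was. Its brighter probe stood at -1.39, -1.72 and -1.25 in Eng+Flk1+ cells, -1.45, -1.21 and -1.20 in Eng-Flk1+ cells, 1.15, -0.01 and -0.59 in Eng+Flk1- cells and -0.91, -1.32 and -1.35 in Eng-Flk1- cells. The Eng+Flk1- arrays lay above all 9 others. That pattern was shared by 2 of 14 member probes, those of Id2 and Msx1, and by 0.875% of all tested probes. It too was read off the values of these members, so the shares are a description and not a test. The difference of Msx1 was 1.37 ± 0.49 (SE) between Eng+Flk1- and Eng-Flk1- cells (limma, adjusted p = 0.216) and -1.63 ± 0.49 between Eng+Flk1+ and Eng+Flk1- cells (adjusted p = 0.314), and neither was called. A second Msx1 probe, printed as 10 spots per array, gave 1.22 ± 0.70 (adjusted p = 0.452) and -1.61 ± 0.70 (adjusted p = 0.686), and correlated with the first at 0.755. On this probe the Eng+Flk1- arrays, at -1.05, -2.19 and -2.91, overlapped those of Eng-Flk1- cells (up to -2.18) and of Eng+Flk1+ cells (up to -2.89).

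Msx2 moved less. Its probe stood at -2.50, -2.90 and -2.60 in Eng+Flk1+ cells, -2.79, -2.26 and -2.36 in Eng-Flk1+ cells, -2.46, -1.03 and -2.02 in Eng+Flk1- cells and -2.29, -2.86 and -3.12 in Eng-Flk1- cells. Eng+Flk1- cells again had the highest mean but overlapped Eng-Flk1+ and Eng-Flk1- cells, and the difference between Eng+Flk1- and Eng-Flk1- cells was 0.92 ± 0.48 (limma, adjusted p = 0.404). Because this probe and the second Msx1 probe are printed 10 times, their measuring error within an array is known. The SD over spots had a median of 0.138 for Msx2 and 0.147 for Msx1, below the SD between replicate arrays in every fraction, which ran between 0.21 and 0.73 for Msx2 and between 0.47 and 1.15 for Msx1.

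Smad1, which carries the BMP signal to the nucleus, had its lowest mean in Eng+Flk1+ cells by its brighter probe. The levels were -0.37, 0.24 and 0.06 in Eng+Flk1+ cells, 1.26, 1.01 and 1.64 in Eng-Flk1+ cells, 0.04, 1.62 and 0.32 in Eng+Flk1- cells and 0.47, 0.20 and 2.16 in Eng-Flk1- cells. Eng+Flk1+ and Eng-Flk1+ arrays did not overlap, and their difference of -1.33 ± 0.62 (SE) was not called (limma, adjusted p = 0.999). A second Smad1 probe 403 bases away gave 0.05 ± 1.30 for the same comparison. It correlated with the first at 0.581, and its Eng-Flk1- arrays ran between -3.12 and 3.65.

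Smad5, the partner of Smad1 in the same step, was read by 3 probes that disagreed. The brightest stood at -1.60, 0.45 and -1.27 in Eng+Flk1+ cells, -2.52, -0.55 and -2.11 in Eng-Flk1+ cells, -3.79, -3.66 and -3.07 in Eng+Flk1- cells and -3.83, -2.64 and 0.11 in Eng-Flk1- cells. By this probe Eng+Flk1+ cells lay above Eng+Flk1- cells without overlap, by 2.70 ± 0.97 (SE; limma, adjusted p = 0.51). The second probe gave its widest difference elsewhere, 5.44 ± 1.81 between Eng-Flk1+ and Eng-Flk1- cells (adjusted p = 0.158), where only 1 of 3 Eng-Flk1- arrays was well above background. The third gave -0.09 ± 1.74 for that comparison. Correlations between the 3 Smad5 probes were 0.104, -0.553 and 0.103, so no order of fractions can be given for this gene.

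The inhibitory Smads showed no called difference. Smad6 stood at 0.84, 0.95 and 0.51 in Eng+Flk1+ cells, 0.32, 0.40 and -0.07 in Eng-Flk1+ cells, 0.31, -0.36 and 0.84 in Eng+Flk1- cells and 1.86, -1.75 and -0.44 in Eng-Flk1- cells. Eng+Flk1+ arrays lay above Eng-Flk1+ arrays by 0.55 ± 0.78 (limma, adjusted p = 0.999), without overlap, and the other single-step differences of Smad6 were 0.33 to 0.50. Smad7 was well above background on 1 of 12 arrays, Eng+Flk1+ replicate 2 at -4.33, and lay between -8.62 and -6.62 on the other 11. It was not tested.

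**Figure D2:**
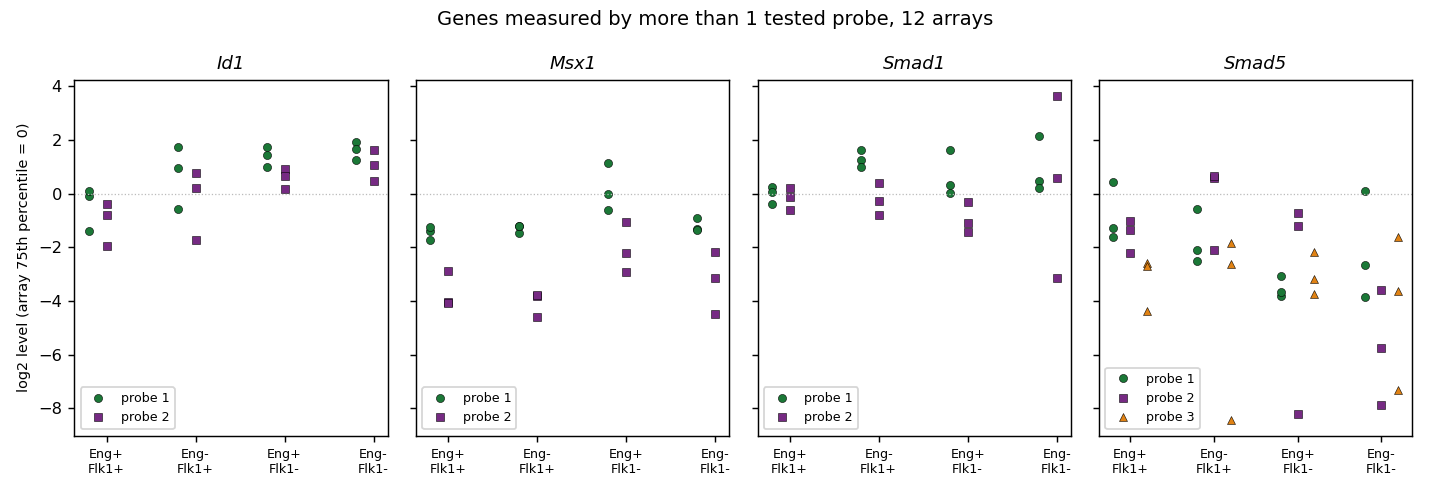
Levels of the 4 genes with more than 1 tested probe on each of the 12 arrays; the vertical axis is log2 of the signal relative to the array's 75th percentile, and each symbol is 1 probe on 1 array, numbered from the brightest. The 2 probes of Id1 move together (r = 0.979), whereas the 3 probes of Smad5 do not (r = -0.553 to 0.104).

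The second Id2 probe and the second Id4 probe were too dim to test. The second Id2 probe was well above background on 4 of 12 arrays, at -6.44, -5.47 and -6.09 in Eng+Flk1+ cells, -6.21, -8.43 and -6.33 in Eng-Flk1+ cells, -7.86, -6.01 and -6.10 in Eng+Flk1- cells and -7.84, -7.83 and -7.39 in Eng-Flk1- cells. It did not show the Eng+Flk1- maximum of the first probe. On the mm8 build of the array files it lies at chr12:25683119-25683178, minus strand, downstream of the first Id2 probe at chr12:25684398-25684745, whose placement spans more than its 60 bases. The second Id4 probe was well above background on 2 of 12 arrays and lay between -8.71 and -3.89, at chr13:48275748-48275807 against chr13:48275236-48275295 for the tested Id4 probe, both on the plus strand. No annotation of the mm8 build was used here, so exons and untranslated regions are not given.

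**Figure D3:**
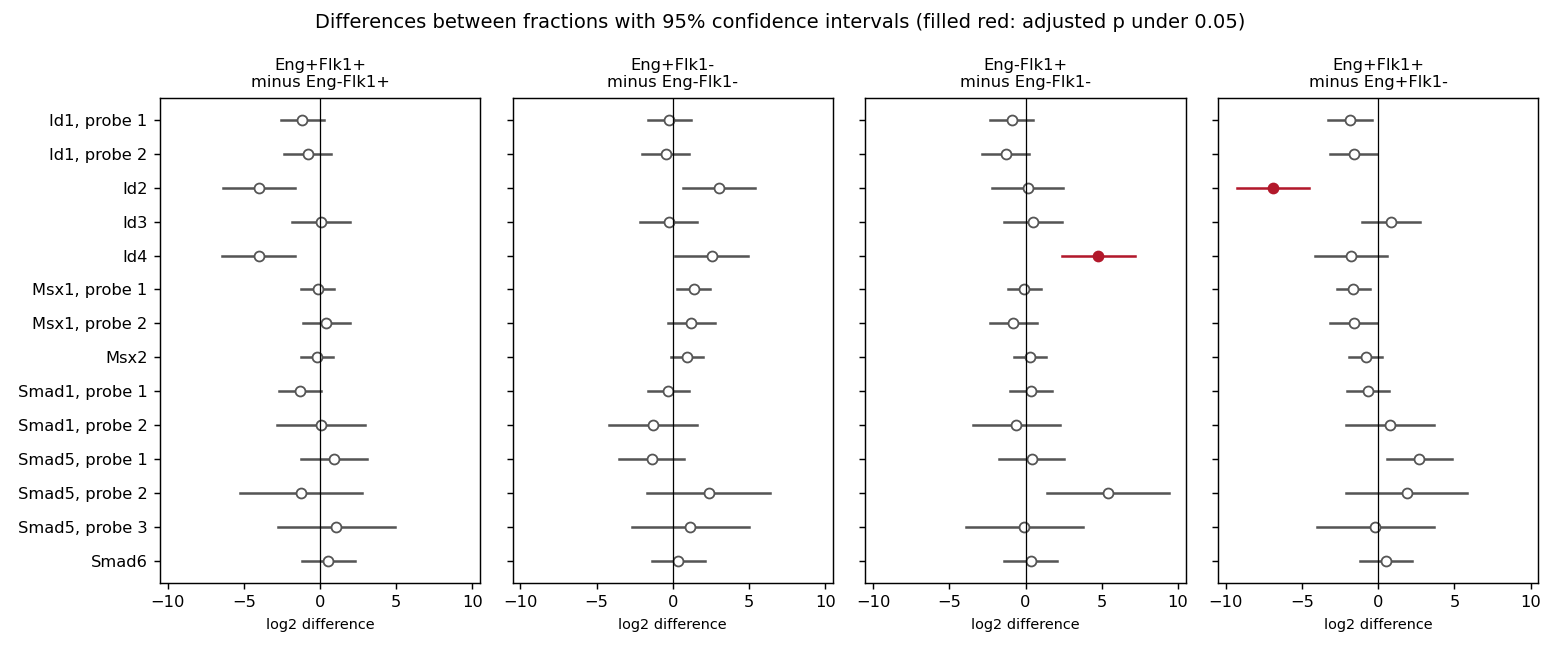
Difference between fractions (points, log2 scale) with its 95% confidence interval (lines) for the 14 tested probes in the 4 single-step comparisons; filled red points passed the adjusted p threshold. The called differences are Id2 at -6.89 in Eng+Flk1+ against Eng+Flk1- cells and Id4 at 4.78 in Eng-Flk1+ against Eng-Flk1- cells.

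The counts by comparison set these values against the whole array. In Eng+Flk1+ against Eng-Flk1+ cells, which sets cells with Endoglin against cells without it among Flk1+ cells, 0 of 14 member probes were called by limma, against 0.0332% of all tested probes, while 2 of 14 (Id2 and Id4) had an unadjusted p under 0.05, against 5% of all. Arrays did not overlap for 4 of 14 (Id2, Id4 and Smad1 lower, Smad6 higher), against 13.8% of all. In Eng+Flk1- against Eng-Flk1- cells, the Endoglin comparison among Flk1- cells, 0 of 14 were called, against 2.01% of all. An unadjusted p under 0.05 was reached by 3 of 14 (Id2, Id4 and Msx1), against 14.9% of all, and the same 3 did not overlap and were higher, against 19% of all in either direction.

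For Flk1 the counts were as follows. In Eng-Flk1+ against Eng-Flk1- cells 1 of 14 member probes was called, Id4, which was higher, against 2.62% of all probes called and 2.35% called higher. Here 2 of 14 (Id4 and the second Smad5 probe) had an unadjusted p under 0.05, against 18.1% of all, and the same 2 did not overlap, against 22.4% of all. In Eng+Flk1+ against Eng+Flk1- cells 1 of 14 was called, Id2, which was lower, against 0.341% of all called and 0.127% called lower. An unadjusted p under 0.05 was reached by 6 of 14 (both Id1 probes, Id2 and both Msx1 probes lower, the first Smad5 probe higher), against 6.88% of all, and 6 of 14 did not overlap, against 15.4% of all. The median difference of the member probes in that comparison was -0.76, against -0.02 over all probes. Probes of the same gene are counted separately in all these counts. The Id1 probes overlap by 50 bases, both Msx1 probes are counted, and the 3 Smad5 probes disagreed. Members were chosen with earlier results of these data known, so the shares are a description.

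Averaged over both Endoglin states, 0 of 14 member probes were called between Flk1+ and Flk1- cells, against 1.75% of all, and 7 of 14 had an unadjusted p under 0.05, against 12.7% of all. Of these, both Id1 probes, Id2 and both Msx1 probes were lower, while the first and the second Smad5 probe were higher. Probes of the same gene are counted separately here, and the Id1 probes share most of their bases. Id2 came nearest, at -3.37 ± 0.75 (SE; limma, adjusted p = 0.0543). Averaged over both Flk1 states, 0 of 14 were called between Endoglin+ and Endoglin- cells, against 0.453% of all, and 0 of 14 had an unadjusted p under 0.05, against 9.26% of all. For the difference of the Endoglin differences, 0 of 14 were called, against 0.546% of all, and 3 of 14 (Id2, Id4 and the first Msx1 probe) had an unadjusted p under 0.05, against 11.2% of all. The comparisons share fractions with each other, so their counts are not independent.

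Markers of other cell types moved with the fractions. For 7 trophoblast and extraembryonic ectoderm markers, the summed level relative to the array's 75th percentile (linear scale) was 4.96 to 10.3 in Eng+Flk1+ cells, 3.57 to 7.73 in Eng-Flk1+ cells, 20.1 to 25.3 in Eng+Flk1- cells and 3.59 to 6.78 in Eng-Flk1- cells. Eng+Flk1- arrays, which had the highest Id2, Msx1 (brighter probe) and mean Msx2, thus also had the highest trophoblast sum. Of the 7 markers, 3 (Elf5, Esrrb and Rhox9) were called higher in Eng+Flk1- than in Eng-Flk1- cells, against 2.01% of all probes called in either direction. With slide as a block in the fit, 0 of all probes were called in this comparison. None of the 7 was below background on all arrays of any fraction. For 6 epithelial markers the sum was 3.89 to 4.97 in Eng+Flk1+ cells, 17.9 to 24 in Eng-Flk1+ cells, 35.4 to 51.5 in Eng+Flk1- cells and 44 to 94.1 in Eng-Flk1- cells. For 8 endothelial markers it was 32.8 to 61.2 in Eng+Flk1+ cells, 10.9 to 15.4 in Eng-Flk1+ cells, 1.39 to 2.26 in Eng+Flk1- cells and 1.41 to 4.26 in Eng-Flk1- cells. Eng+Flk1+ cells, the fraction with the lowest mean Id1 and Id2, had the highest endothelial sum. Their epithelial sum was the lowest with all 6 markers, but in Eng-Flk1+ cells most of that sum was Cd24a, at 16.9 to 19.6. Over the other 5 epithelial markers, a sum added after seeing the data, the range was 0.545 to 1.63 in Eng+Flk1+ cells, 0.98 to 5.38 in Eng-Flk1+ cells, 30 to 47.9 in Eng+Flk1- cells and 27 to 62 in Eng-Flk1- cells, so the Flk1+ fractions overlapped.

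Beside the called difference of Id4, the sum of 6 allantois and extraembryonic mesoderm markers was 3.87 to 9.85 in Eng+Flk1+ cells, 7.04 to 11.9 in Eng-Flk1+ cells, 12.6 to 18.7 in Eng+Flk1- cells and 0.241 to 0.69 in Eng-Flk1- cells. In Eng+Flk1- cells most of that sum was Bmp4. Tbx4 and Twist1 were higher in Eng-Flk1+ than in Eng+Flk1- arrays without overlap, Bmp4 and Hand1 were lower without overlap, and Foxf1 and Postn overlapped. The sum of 9 visceral endoderm markers was 3.74 to 9.56 in Eng+Flk1+ cells, 3.96 to 12.7 in Eng-Flk1+ cells, 7.68 to 11.5 in Eng+Flk1- cells and 99.7 to 312 in Eng-Flk1- cells. Eng-Flk1- cells, in which Id4 was not above background, had the lowest mesoderm and the highest visceral endoderm sum. Among the 9 visceral endoderm markers, Afp was well above background on no array of Eng-Flk1- or Eng-Flk1+ cells. Amn and Rbp4 in Eng-Flk1- cells overlapped other fractions. Twist1, a mesoderm marker, was well above background on no Eng-Flk1- array. The sum of 6 epiblast markers was 7.07 to 9.95 in Eng+Flk1+ cells, 7.02 to 12.5 in Eng-Flk1+ cells, 15.9 to 19.3 in Eng+Flk1- cells and 31.9 to 102 in Eng-Flk1- cells, again highest in the last. The sum of 6 primitive erythroid markers was 1.22 to 3.49 in Eng+Flk1+ cells, 1.4 to 1.85 in Eng-Flk1+ cells, 7.84 to 15.4 in Eng+Flk1- cells and 23.7 to 40.6 in Eng-Flk1- cells, so that it was higher in the Flk1- fractions, as the means of Id1 were. The sum of 5 nascent mesoderm markers was 0.719 to 0.793 in Eng+Flk1+ cells, 0.696 to 0.987 in Eng-Flk1+ cells, 0.454 to 1.37 in Eng+Flk1- cells and 0.986 to 3.83 in Eng-Flk1- cells. The part of these cell types in the levels of Id1, Id2, Id4, Msx1 and Msx2 was not tested.

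**Figure D4:**
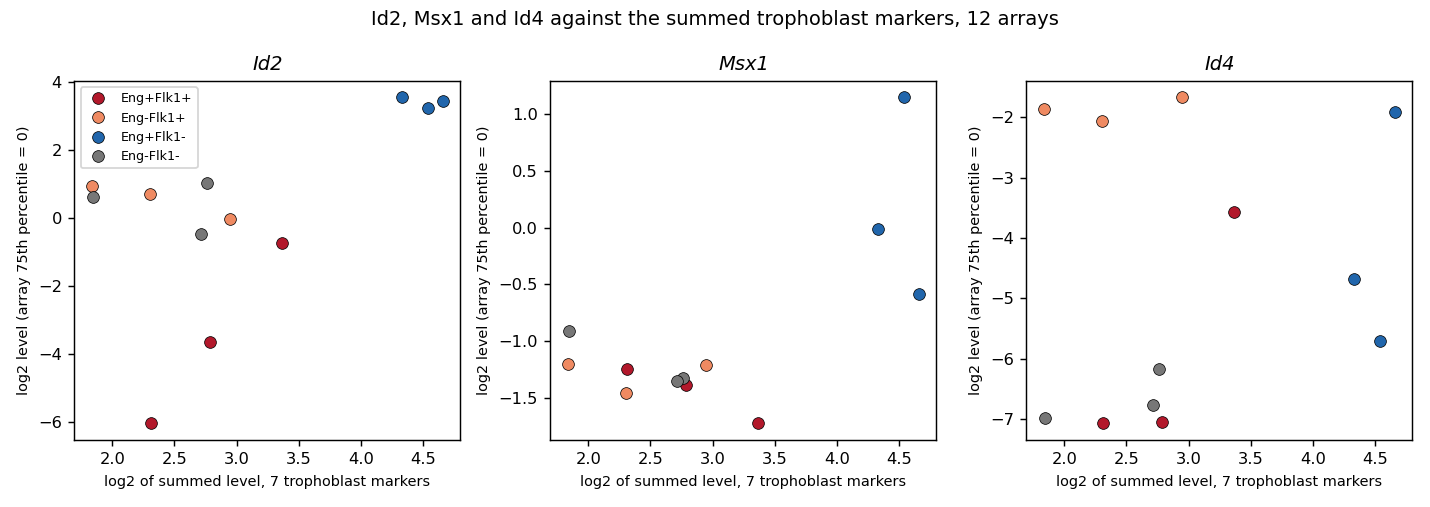
Levels of Id2, Msx1 and Id4 (vertical axes, log2 relative to the array's 75th percentile) against the log2 of the summed level of 7 trophoblast markers on the same array (horizontal axis); each point is 1 of 12 arrays, coloured by fraction. The 3 Eng+Flk1- arrays stand alone at the right, at sums of 20.1 to 25.3, with Id2 at 3.24 to 3.54.

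Genes that followed a member most closely over the 12 arrays were sought among 13007 named genes above background on every array. Id2 was most like Krt8, a keratin of simple epithelia (Pearson r = 0.933), then Sf3b1, a splicing factor (r = 0.902), and Nol12 (r = 0.86). Id1 was most like Car4, a membrane-bound carbonic anhydrase (r = 0.918), Timm23, a mitochondrial import subunit (r = 0.907), and Lamp1, a lysosomal membrane protein (r = 0.893). The nearest genes were Ints6l for Id3 (r = 0.888), Rpusd1 for Msx1 (r = 0.905) and Mrps28 for Msx2 (r = 0.881). For the Smads they were Tyms-ps for Smad1 (r = 0.964), Crybb2 for Smad5 (r = 0.911) and Hhipl2 for Smad6 (r = 0.932). Each value is the highest of 13007 over 12 arrays that share 4 fractions, and serves as a description.

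Among the 9 members with a tested probe, Id1 and Id2 had the highest correlation of their brightest probes over the 12 arrays, with r = 0.746, and 0.551 after the fraction means were taken out. Id2 and Id4 correlated at 0.434 over the arrays and at 0.623 within fractions. Id1 and Id3 correlated at 0.126 over the arrays and at 0.645 within fractions, so the order of these pairs turned round once the fraction means were removed. Smad5 and Msx1 ran most against each other over the arrays (r = -0.671, and -0.336 within fractions), though Smad5 is the gene whose probes disagreed. Within fractions the lowest value was that of Msx1 and Id4, at -0.761. The tested Id4 probe was well above background on 7 of 12 arrays, so its correlations with Id2 and Msx1 include arrays near background.

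Among the genes upstream of the members, 2 ligands had called differences between single fractions. Bmp4, the main BMP ligand at this stage, stood at 2.66, 2.11 and 1.50 in Eng+Flk1+ cells, 2.68, 1.77 and 1.62 in Eng-Flk1+ cells, 3.01, 3.50 and 3.68 in Eng+Flk1- cells and -3.72, -1.44 and -3.24 in Eng-Flk1- cells. All other fractions lay above Eng-Flk1- cells, Eng+Flk1- cells by 6.20 (limma, adjusted p = 0.00132) and Eng-Flk1+ cells by 4.82 (adjusted p = 0.0037), and the Endoglin differences of Bmp4 differed between Flk1 states by -6.13 (adjusted p = 0.0196). Bmp8b, a ligand of the extraembryonic ectoderm, was above background in Eng+Flk1- cells at -1.74, -1.54 and -1.82. It was at least 22.3-fold lower in Eng+Flk1+ cells, with measured means of -7.20 in Eng+Flk1+ and -1.70 in Eng+Flk1- cells (adjusted p = 0.0181). It was at least 15.8-fold higher in Eng+Flk1- than in Eng-Flk1- cells, which averaged -6.92 (adjusted p = 0.00721). Bmp8b and Id2 thus both had their maximum in Eng+Flk1- cells. Eng+Flk1- and Eng-Flk1- cells share no slide. With slide as a block in the fit, 0 of all probes were called between them, so the calls of Bmp4 and Bmp8b there were lost.

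Of the 9 BMP ligands tested, 2 were called higher in Eng+Flk1- than in Eng-Flk1- cells (Bmp4 and Bmp8b), 1 higher in Eng-Flk1+ than in Eng-Flk1- cells (Bmp4) and 1 lower in Eng+Flk1+ than in Eng+Flk1- cells (Bmp8b). Over all tested probes, 2.01% were called in Eng+Flk1- against Eng-Flk1- cells and 2.62% in Eng-Flk1+ against Eng-Flk1- cells, in either direction. For Eng+Flk1+ against Eng+Flk1- cells this share was 0.341%. Bmp2 was called on average over both Endoglin states but in no single-step comparison, 2.97 higher in Flk1+ than in Flk1- cells (limma, adjusted p = 0.0383). Of 7 BMP receptors tested, Bmpr1a, a type I receptor, was higher in Eng-Flk1+ than in Eng-Flk1- cells by 3.50 (adjusted p = 0.0266) and in Eng+Flk1- than in Eng-Flk1- cells by 3.73 (adjusted p = 0.0254). With slide as a block, the calls of Bmp4, Bmp8b and Bmpr1a in Eng+Flk1- against Eng-Flk1- cells were lost. Acvrl1, the endothelial type I receptor ALK1, was higher in Eng-Flk1+ than in Eng-Flk1- cells by 4.99 (adjusted p = 0.0227). None of 9 other Smads and Smad regulators was called in any of the 4 single-step comparisons, where limma gave an unadjusted p under 0.05 to 0 of the 9 in Eng+Flk1+ against Eng-Flk1+ cells (5% of all probes), 1 in Eng+Flk1- against Eng-Flk1- cells (14.9% of all), 3 in Eng-Flk1+ against Eng-Flk1- cells (18.1% of all) and 1 in Eng+Flk1+ against Eng+Flk1- cells (6.88% of all). Smad3, a transducer of TGF-beta and activin, had the lowest, 0.0131, for a difference of 4.16 between Eng+Flk1- and Eng-Flk1- cells (adjusted p = 0.19).

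Of 8 antagonists and decoys tested, 1 was called between single fractions, in Eng+Flk1- against Eng-Flk1- cells, where 2.01% of all probes were called. Cer1, a secreted inhibitor of BMP and Nodal made in the anterior visceral endoderm, was at least 232-fold lower in Eng+Flk1- than in Eng-Flk1- cells (limma, adjusted p = 0.00333), with measured means of -7.40 in Eng+Flk1- and 1.78 in Eng-Flk1- cells. The visceral endoderm sum was also highest in Eng-Flk1- cells. Of 10 other genes reported to respond to BMP, 2 were called higher in Eng+Flk1- than in Eng-Flk1- cells, against 2.01% of all probes called in either direction. They were the T-box genes Tbx3, by 4.28 (limma, adjusted p = 0.0401), and Tbx20, by 4.08 (adjusted p = 0.0203). With slide as a block, the calls of Cer1, Tbx3 and Tbx20 in this comparison were lost. The median difference of the 10 genes was 1.99, against 0.04 over all probes and 0.65 for the member probes. Cdx2, which is also one of the trophoblast markers, was called on average over both Endoglin states but in no single-step comparison, with a difference of -3.24 for Flk1+ against Flk1- cells (limma, adjusted p = 0.0474). Its levels were -3.36, -6.98 and -3.06 in Eng+Flk1+ cells and 1.115, 0.73 and 1.49 in Eng+Flk1- cells. The Endoglin- fractions overlapped, at 0.45, -0.99 and -1.13 in Eng-Flk1+ cells and -0.04, -0.49 and 1.525 in Eng-Flk1- cells.

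The helix-loop-helix proteins that Id proteins bind or hold in check gave 9 tested genes, of which 2 were called higher in Eng-Flk1+ than in Eng-Flk1- cells and 0 by limma in the other 3 single-step comparisons. In that comparison 2.62% of all probes were called in either direction. An unadjusted p under 0.05 was reached by 1 of the 9 in Eng+Flk1+ against Eng-Flk1+ cells (5% of all probes), 3 in Eng+Flk1- against Eng-Flk1- cells (14.9% of all), 3 in Eng-Flk1+ against Eng-Flk1- cells (18.1% of all) and 4 in Eng+Flk1+ against Eng+Flk1- cells (6.88% of all). Tal1, a master regulator of blood formation, stood at 3.95, 3.32 and 3.68 in Eng+Flk1+ cells, 3.56, 2.99 and 3.82 in Eng-Flk1+ cells, -0.72, 0.60 and 0.08 in Eng+Flk1- cells and -0.59, -1.74 and 1.38 in Eng-Flk1- cells. Flk1+ arrays did not overlap Flk1- arrays, and the difference between Eng-Flk1+ and Eng-Flk1- cells was 3.78 (limma, adjusted p = 0.0225). Twist1, a regulator of mesoderm, was at least 37.4-fold higher in Eng-Flk1+ than in Eng-Flk1- cells, with measured means of -0.45 and -6.79 (adjusted p = 0.00259). Hand1, a regulator of extraembryonic mesoderm and trophoblast, differed by 6.16 between Eng+Flk1- and Eng-Flk1- cells (adjusted p = 0.0536), and the E protein Tcf4 by -2.51 (adjusted p = 0.269).

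**Figure D5:**
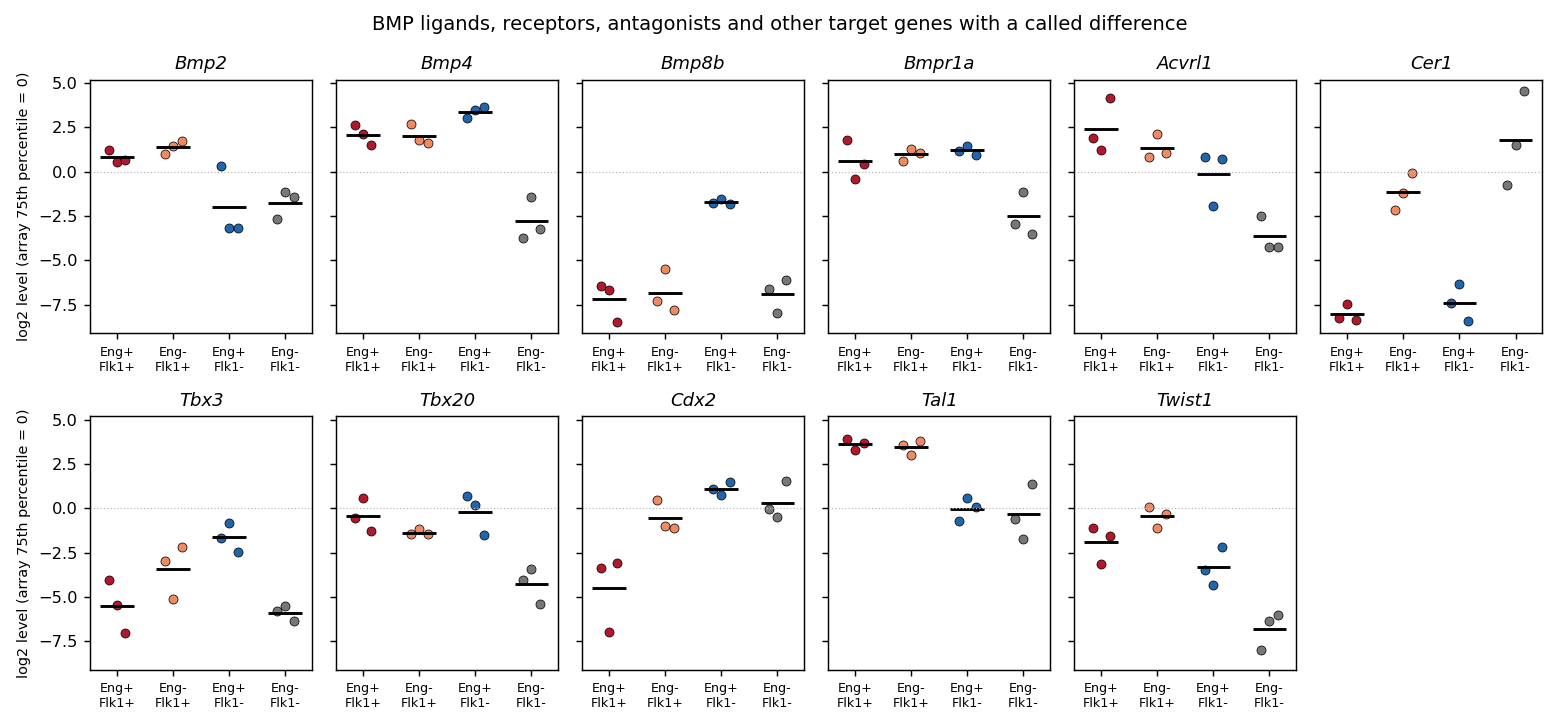
Levels on each of the 12 arrays (points) and fraction means (bars) of the 11 other genes of the BMP and helix-loop-helix lists with a called difference in any comparison; the vertical axis is log2 of the signal relative to the array's 75th percentile. Bmp8b is above background in Eng+Flk1- cells at -1.82 to -1.54, and Tal1 separates the Flk1+ from the Flk1- fractions.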

How the data were processed

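Single-colour (Cy3) Agilent arrays of 12 sorted samples were scanned with Agilent Feature Extraction 10.5.1.1, per the file headers, and the deposited intensity is that software's processed signal, spatially and multiplicatively detrended, on probes placed on mm8. RNA of few cells was amplified by global PCR, per the labels' protocols; how it changed low-abundance RNA was not tested. The flags for well above background are 0 or 1 values of the deposited files. The authors' deposited table holds a ratio, which equals each processed signal over its array's median, and served as an alternative.

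Log2 intensity minus each array's 75th percentile was computed, outlier spots and control spots were left out, and spots of a probe were averaged. Probes well above background on all 3 arrays of a fraction were tested with limma 3.58.1 (R 4.3.3, lmFit and eBayes) across all 12 arrays with Benjamini-Hochberg adjustment over the probes of each comparison. The fit was tested on simulated data. For genes with several probes the brightest over all arrays leads. Of 41174 probes, 24496 were named through accessions, 6234 through symbols and 10444 by the file's name. Deviations from fraction means of same-numbered arrays correlated at -0.0863 to 0.125, and those of other numbers at -0.0962 to 0.0748. With 3 arrays per fraction this cannot decide whether the replicate numbers pair samples, and the fit reported used no pairing. The members and gene lists were chosen with earlier results of these data known. Named are all members, up to 4 genes per list by lowest p, and the nearest genes per member by correlation. Array number limits the precision.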

Additional observations from a re-analysis of the deposited data

Results flagged for a closer look

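The Endoglin difference of Id2 ran in opposite directions in the Flk1 states. All 3 Eng+Flk1+ arrays lay below all 3 Eng-Flk1+ arrays, and all 3 Eng+Flk1- arrays lay above all 3 Eng-Flk1- arrays. The difference between the differences was -7.03 on the log2 scale, and its limma test missed the threshold (adjusted p = 0.0783). It was called under normexp background correction (-5.57, adjusted p = 0.0378) and without Eng+Flk1+ replicate 2 (-8.40, adjusted p = 0.0154).

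Id4 had the same arrangement of arrays, with a difference between the differences of -6.58 (limma, adjusted p = 0.104). It was called without Eng+Flk1+ replicate 2 (-7.74, adjusted p = 0.0425). The Eng-Flk1- arrays were not above background for Id4, which bounds its lower side.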

How the results depend on the processing

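Of 2184 member differences under alternatives, 0 reversed a called direction, 23 lost a call, 15 gained one and 2146 kept their side of the threshold, while 116 that were called in neither fit changed sign. Depth of sequencing does not apply to arrays, and signal over background limits Id4, Smad7 and the second Id2 probe. Slide was partly confounded with fraction, Eng+Flk1- and Eng-Flk1- cells share no slide, and the fit with slide as a random block used a negative correlation between slides (-0.199). The alternative without the Eng-Flk1- arrays was chosen after seeing the data.

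Counts of probes called are given in the order Eng+Flk1+ against Eng-Flk1+, Eng+Flk1- against Eng-Flk1-, Eng-Flk1+ against Eng-Flk1-, Eng+Flk1+ against Eng+Flk1-, the Flk1 average, the Endoglin average and the interaction, and they were 11, 666, 867, 113, 581, 150 and 181 in the fit reported, with those that moved by over 1.5 times below. Normexp background correction gave 0, 238 and 381 for the first 3, then 329, 44 and 57 for the last 3. Quantile normalization gave 6 and 404 for the first 2, then 86 and 90 for the last 2. The authors' median scaling gave 7, 416 and 571 for the first 3, then 80 and 67 for the last 2. It shifted the median of all probes, relative to the fit reported, by -0.566 in Eng+Flk1- against Eng-Flk1- cells, by -0.605 in Eng-Flk1+ against Eng-Flk1- cells, by -0.317 in the Flk1 average, by -0.277 in the Endoglin average and by 0.578 in the interaction. Normexp shifted it by -0.291, -0.326, -0.14, -0.126 and 0.325 in the same comparisons, and quantile normalization by -0.109 and -0.11 in the first 2 of these and by 0.135 in the interaction. The share of calls that were higher was 88.1% in Eng+Flk1- against Eng-Flk1- cells and 89.7% in Eng-Flk1+ against Eng-Flk1- cells, but 69.5% and 68% under median scaling, 74.4% and 75.1% under normexp and 77.2% and 64.8% under quantile normalization. Under median scaling, normexp and quantile normalization it was 70.8%, 69.9% and 75% in the Flk1 average against 84.2%, 63.8%, 50% and 69.8% in the Endoglin average against 80%, and 13.4%, 21.1% and 14.4% in the interaction against 6.08%. No filter on dim probes gave 6 for the first and 72 for the fourth. Probes above background on all 12 arrays gave 0, 219, 272, 51, 188, 29 and 33, and slide as a block 0, 0, 52, 16, 37, 0 and 3. Slide as a random block gave 4717, 2051, 344, 2798 and 1419 for the second to the sixth. The replicate block gave 1, 50, 63 and 98 for the first, the fourth, the sixth and the seventh, and 6 of 12 arrays correlated best with an array of their own number. Array weights gave 72, 214, 358 and 352 for the first 4 and 116 for the last, and 1 probe per gene gave 6, 344, 453, 63, 288, 68 and 66. Using only the fractions compared gave 4 and 381 for the first 2, and leaving out the Eng-Flk1- arrays 22 and 211 for the first and the fourth. Leaving out 1 array gave 0 to 15, 326 to 1436, 349 to 1777, 16 to 161, 344 to 1049, 44 to 414 and 63 to 605.

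Among member probes, the call of Id4 in Eng-Flk1+ against Eng-Flk1- cells became 0 under normexp, quantile normalization, median scaling, no filter, the stricter filter (where Id4 was not tested), slide as a block, the replicate block, array weights and 1 probe per gene. With 1 array left out, 0 to 2 member probes were called in this comparison. The 2 were Id4 and the second Smad5 probe (limma, adjusted p = 0.0335), called together without Eng+Flk1- replicate 3. The call of Id2 in Eng+Flk1+ against Eng+Flk1- cells became 0 under the replicate block (adjusted p = 0.0586) and with only those fractions, and was 0 to 1 with 1 array left out. The Flk1 average gained 1 call (Id2) under normexp, quantile normalization, median scaling and array weights, 5 with slide as a random block, and 0 to 1 with 1 array left out. The interaction gained 1 call (Id2) under normexp and 0 to 2 with 1 array left out. Slide as a random block called 1 member (Msx1) in Eng+Flk1- against Eng-Flk1- cells. The cause was not tested.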

Other observations

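Among the 3 Eng+Flk1+ arrays, replicate 2 had the highest value of Id1 (0.09), Id2 (-0.74), Id4 (-3.57), the brightest Smad5 probe (0.45), Smad6 (0.95) and Smad7 (-4.33), and the lowest of both Msx genes. It is the 1 array of all 12 on which Smad7 was above background. The same array had the highest trophoblast marker sum of its fraction (10.3) and the lowest Cdx2 of all arrays (-6.98). Most of that sum was Tfap2c, at a log2 level of 2.95, against 1.63 and 0.95 on Eng+Flk1+ replicates 1 and 3. Of the other trophoblast markers, Rhox9 was also highest of the fraction on replicate 2, Eomes and Cdx2 were lowest, and the rest lay between. Kdr on replicate 2 (1.85) lay beside those of the other Eng+Flk1+ arrays (1.53 each).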
